A study of Mus musculus with 6 samples.

Results

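Cluster 5 is one of the 14 groups into which the authors sorted all cells and nuclei of the series by their RNA. Its members were taken as every row of the deposited cell table with cluster number 5. They were 3856 of 51785 cells and nuclei, of which 3420 were whole cells and 436 were nuclei. Untreated cells and nuclei made up 3758 members, 97.5% of them, and treated ones 98.

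All samples were PB3, a mouse mammary tumour cell line grown in culture. Run 1 measured untreated cells (UNT cells) and cells that had 4 eribulin rounds (ERI4 cells). Run 2 measured 1, 2 and 3 rounds of eribulin (ERI1, ERI2, ERI3) in 1 library and 1, 2 and 3 rounds of paclitaxel (PAC1, PAC2, PAC3) in another, the conditions of each library being told apart by hashtag oligos. Run 3 measured nuclear RNA without treatment (UNT nuclei) and with 4 eribulin rounds (ERI4 nuclei), in a joint RNA and chromatin assay of which only the RNA is used. An eribulin round lasted 72 h at 500 nM, and 48 h of recovery followed. The first paclitaxel round lasted 72 h at 100 nM, and later ones were at 250 nM. The labels give 48 h of recovery after the first round in PAC2 and PAC3, an unstated length of recovery in PAC1 and after the later rounds of PAC3, and name none after the last round of PAC2. Every condition had 1 library or part of 1, with no replicate, so values are set side by side without a test. A range in parentheses after a percent is its exact Clopper-Pearson 95% interval, which covers counting error only.

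Eribulin blocks the growth of microtubules and paclitaxel stabilises them, and both arrest dividing cells in mitosis. A lineage barcode is a short synthetic sequence placed in a cell's genome and passed to its daughters, so that cells with the same barcode are taken to descend from the same marked cell. Pseudotime is a distance along a graph drawn through cells by the likeness of their RNA, counted from chosen root cells. It has no unit of time.

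The lineage barcodes below carry most of what follows. The first 6 held the most untreated cells of cluster 5. The next pair were the most frequent barcodes of untreated cells that lay almost wholly outside it, and the last 3 had the most cluster 5 UNT cells among barcodes seen in ERI4 cells. Each is 48 bases long, 5′ to 3′. The lower case holds a 14-base part, numbered after bc14 in the name, and a linker of 4 bases that was the same in all 65 barcodes looked up. The capitals mark the 30-base part, numbered after bc30.
bc14-22-bc30-18173: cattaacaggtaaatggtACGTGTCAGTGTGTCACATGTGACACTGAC
bc14-95-bc30-65716: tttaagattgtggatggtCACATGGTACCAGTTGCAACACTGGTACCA
bc14-53-bc30-85524: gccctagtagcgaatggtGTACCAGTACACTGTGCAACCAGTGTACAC
bc14-4-bc30-15682: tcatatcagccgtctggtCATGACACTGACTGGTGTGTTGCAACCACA
bc14-47-bc30-43673: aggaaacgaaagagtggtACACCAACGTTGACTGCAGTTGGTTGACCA
bc14-71-bc30-53519: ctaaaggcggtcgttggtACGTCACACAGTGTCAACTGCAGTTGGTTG
bc14-30-bc30-58918: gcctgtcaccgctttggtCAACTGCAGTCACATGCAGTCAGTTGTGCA
bc14-22-bc30-14328: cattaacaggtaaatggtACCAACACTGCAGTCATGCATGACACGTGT
bc14-39-bc30-41529: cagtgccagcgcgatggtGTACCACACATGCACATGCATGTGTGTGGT
bc14-55-bc30-99383: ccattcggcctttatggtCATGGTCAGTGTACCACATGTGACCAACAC
bc14-1-bc30-96229: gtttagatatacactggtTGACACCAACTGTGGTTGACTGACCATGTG
Barcodes bc14-22-bc30-18173 and bc14-22-bc30-14328 have the same 14-base part and differ at 18 bases of the 30-base part. Among the 59 barcodes with at least 20 untreated cells, no pair differed at fewer than 18 bases, so the frequent barcodes are far apart in sequence. All 65 had a GC content of 50% in the 30-base part.

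In the whole table, the median depth of cells outside cluster 5 ran from 11262 UMIs (unique molecular identifiers, counted RNA molecules) in ERI3 to 20879 in ERI4 cells, and nuclei were shallower, at 3482 untreated and 2089 treated. The clusters were made on all libraries together, and a cluster mostly of 1 library, as here, may be that library and not a state. Cell barcodes of the sequencing kit were shared between libraries for 31 of the 3856 members and for 0 of the 98 treated members. Without shared barcodes the share of cluster 5 was 30.1% in UNT cells and 4.29% in UNT nuclei. Run 2 had no untreated library, so its values are given as levels and not compared with run 1.

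Cluster 5 was a state of untreated cells, and almost no cell was in it after 4 rounds of eribulin. It held 3328 of 11061 UNT cells, 30.1% (29.2 to 31.0), and 12 of 9331 ERI4 cells, 0.129% (0.0665 to 0.225). In nuclei it held 430 of 9916 untreated ones, 4.34% (3.94 to 4.76), and 6 of 8711 after 4 rounds, 0.0689% (0.0253 to 0.150). The direction was thus the same in both assays, while the untreated level was far lower in nuclei.

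In run 2 the state was nearly empty in all 6 conditions except PAC1. It held 65 of 2928 PAC1 cells, 2.22% (1.72 to 2.82), and 1 of 848 PAC2 cells, 0.118% (0.00299 to 0.655). PAC3 had 0 of 2792, and 3 cells would be a share of 0.107%. For eribulin it held 3 of 1865 ERI1 cells, 0.161% (0.0332 to 0.469), 0 of 1257 ERI2 cells, where 3 cells would be 0.239%, and 11 of 3076 ERI3 cells, 0.358% (0.179 to 0.639). The intervals of ERI1 and ERI3 overlapped, and the interval of PAC1 lay above those of the other 5. These conditions share libraries within each drug, and drug, dose and recovery differ together.

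**Figure D1:**
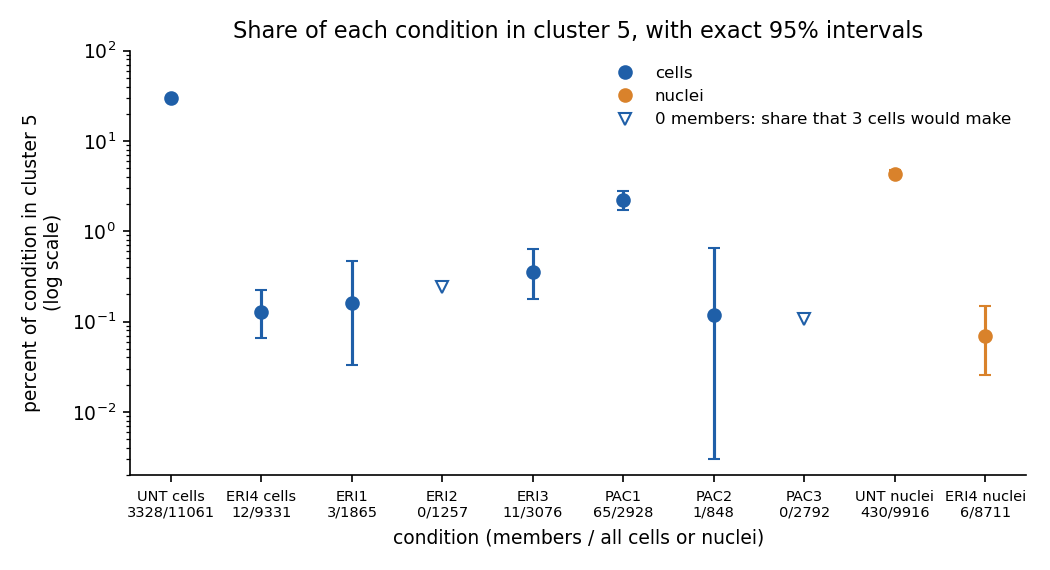
Percent of each condition that lay in cluster 5, on a log scale, with exact 95% intervals, for whole cells (blue) and nuclei (orange); open triangles mark 0 members, at the share that 3 cells would make. UNT cells stand at 30.1%, UNT nuclei at 4.34% and PAC1 at 2.22%, and every other condition lies below 1%.

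The name given to the cluster, an early state, refers to the deposited pseudotime, so the values here describe it and are no independent check. Untreated cells were the root of that scale, and pseudotime and clusters come from the same RNA, so the order of the clusters is a description. Among UNT cells the median pseudotime was 2.46 in cluster 5, 8.13 in cluster 1 and 9.59 in cluster 6, the other main untreated clusters. Over all conditions its median of 2.55 was the lowest of the 14 clusters, and the next was 8.73 in cluster 1. Of the 3000 UNT cells with the lowest pseudotime, 2948 lay in cluster 5. A cluster 1 cell had the higher pseudotime in 97.7% of all pairs with a cluster 5 cell. The name thus describes whole untreated cells on this scale.

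Nuclei were described less well by the name. Cluster 5 nuclei had a median pseudotime of 10.4, close to the 10.7 of cluster 1 nuclei and above the 9.23 of cluster 11 nuclei. The 95th percentile of cluster 5 UNT cells was 4.89, and 96 of the 430 nuclei lay at or below it, 22.3% (18.5 to 26.6). Those 96 were, however, most of the 128 UNT nuclei that low, 75% (66.6 to 82.2). In PAC1, 36 of the 65 members were at or below that level, and only 6 other PAC1 cells were. Low pseudotime and cluster 5 thus went together in all of these libraries, but many nuclei and PAC1 cells of the cluster were not low. No expression matrix was analysed here, so marker genes of the state were not checked.

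**Figure D2:**
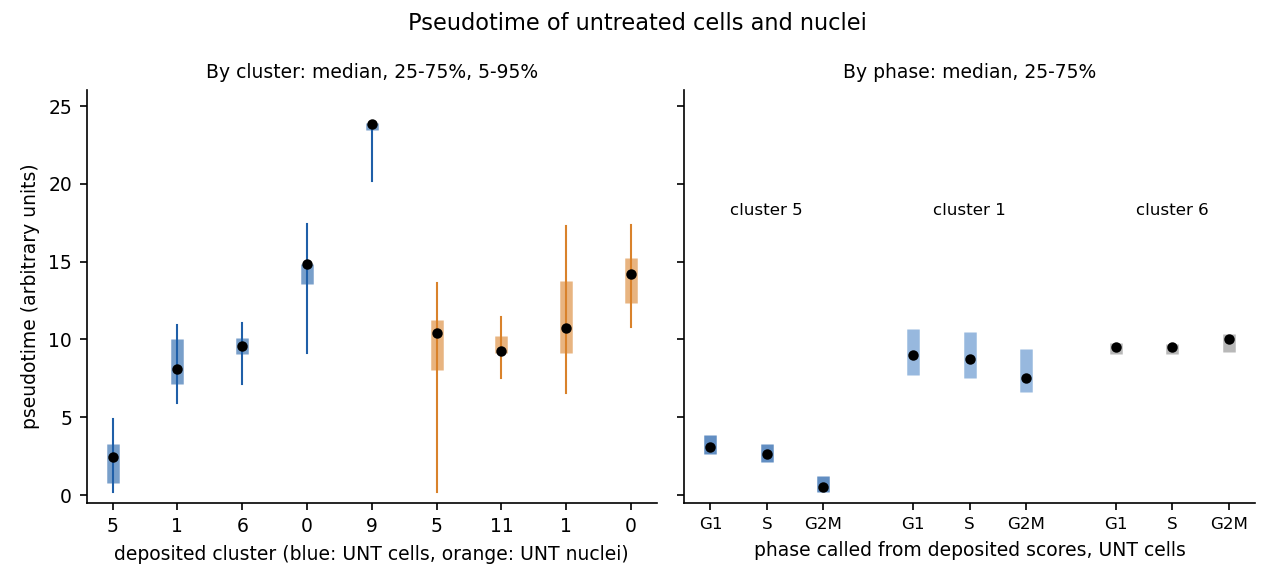
Left, pseudotime in arbitrary units for deposited clusters of UNT cells (blue) and UNT nuclei (orange), with the median (dot), the middle 50% (thick bar) and the 5th to 95th percentile (line). Right, median and middle 50% by cell cycle phase in clusters 5, 1 and 6 of UNT cells: cluster 5 lies lowest among cells, at a median of 2.46, and its G2M cells lie lowest within it, at 0.496.

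In the deposited UMAP, a flat map that places cells with alike RNA near each other, UNT cells, UNT nuclei and PAC1 members lay apart. UNT cells of the cluster had a median UMAP_2 of -7.82, at the lower rim of the untreated island, against -6.59 in cluster 1 and -5.92 in cluster 6. Of their 30 nearest neighbours 83.7% were also in cluster 5, 11.4% were in cluster 1 and 2.52% in cluster 6. UNT nuclei of the cluster lay among nuclei, with a median UMAP_1 of 7.12 against -2.24 in cells. Only 11.5% of their neighbours were in cluster 5, while 60.3% were in cluster 0 and 19.9% in cluster 11, which are mainly clusters of nuclei. PAC1 members lay elsewhere again, with a median UMAP_2 of -1.45. Their neighbours were in cluster 6 for 47.2% and in cluster 5 for 7.08%. Within run 2 the members were not split by drug: of the neighbours of the 11 ERI3 members, 60.9% were PAC1 cells. Among neighbours of the 12 ERI4 cells, of run 1, 59.2% were UNT cells, 32.5% were ERI4 cells and 0.556% were PAC1 cells. Members of ERI3 and ERI4 cells thus lay mostly among cells of their own run. Run and number of rounds differ together between them and cannot be told apart. A shared cluster number did not mean a shared place on this map.

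**Figure D3:**
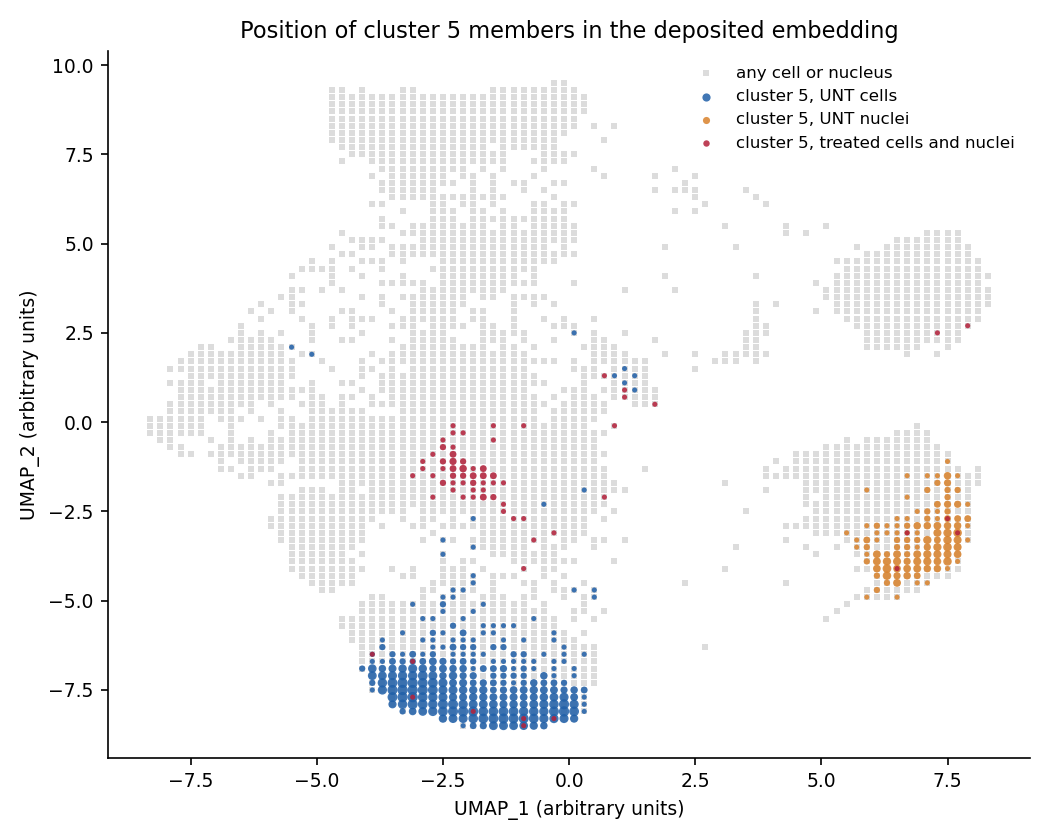
The deposited UMAP in squares of 0.2 units, with grey for any cell or nucleus and colour for squares that hold cluster 5 members; larger dots hold more members. UNT cells of the cluster fill the lower rim of the lower left island, UNT nuclei lie within the nuclei at the right, and most treated members lie near UMAP_2 of -1.45, the PAC1 median.

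Cells of cluster 5 were in all phases of the cell cycle, and the phase ordered them along pseudotime. Phase was set here from the deposited S and G2M scores, with G1 where neither was above 0. Of its UNT cells 26.5% were called G1, 31.9% (30.3 to 33.5) S and 41.6% (39.9 to 43.3) G2M. In cluster 1 these shares were 28.6%, 32.4% and 38.9%, and in cluster 6 they were 25.4%, 31.2% and 43.4%. The G2M share was 2.64 percentage points above that of cluster 1, whose interval of 37.6 to 40.3 overlapped that of cluster 5. Among cells with 11987 to 29217.5 UMIs, a range that all 3 clusters cover, it was 8.79 points above. That range kept 74.2% of cluster 5 and 62.5% of cluster 1, and the G2M share in it was 40.8% and 32.0%. The S share differed by -0.535 points. No rate of division is taken from these calls.

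Within cluster 5, G2M cells lay at the very start of the scale. Their median pseudotime was 0.496 (1384 cells), against 2.67 in S cells (1061) and 3.07 in G1 cells (883). When the cells were split by pseudotime into 4 sets of 832, 96.4% of the lowest set were called G2M and 17.4% of the highest. G1 made up 2.52% of the lowest and 48.9% of the highest set. Pseudotime and G2M score had a Spearman rho of -0.66 over the 3328 cells, against -0.30 in cluster 1 and 0.26 in cluster 6. Both are computed from the same cells' RNA and vary with depth, and the values are a description across cells with no p. In cluster 1 the medians were closer together, at 7.52 in G2M, 8.73 in S and 9.01 in G1. In cluster 6 the G2M cells were the latest, at 10.0 against 9.52 in G1. UMAP_1 followed the G2M score in all 3 clusters, with a rho of 0.83 in cluster 5, 0.80 in cluster 1 and 0.79 in cluster 6. The start of pseudotime in this series thus lay among G2M cells of cluster 5.

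Depth differed between the untreated clusters and is given because it moves with the other values. The median UNT cell had 16038.5 UMIs and 3724 detected genes in cluster 5, 21559 and 4255 in cluster 1, and 17801 and 3869 in cluster 6. Within the common UMI range the median pseudotime was 2.25 in cluster 5, 8.21 in cluster 1 and 9.59 in cluster 6, so the order was the same, although the median depth still differed there, at 16422, 19548 and 17289.5 UMIs. The median mitochondrial share of UMIs, which is often high in damaged cells, was 4.12% in cluster 5, 4.05% in cluster 1 and 4.05% in cluster 6. G2M cells of cluster 5 were deeper than G1 cells, with medians of 19036 and 13523 UMIs. The part of depth in the phase and barcode values was not tested.

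Barcodes were called in fewer cells of cluster 5 than of cluster 1. Exactly 1 barcode was called in 40.1% (38.5 to 41.8) of its UNT cells, against 54.7% (53.4 to 56.1) in cluster 1 and 33.8% (31.4 to 36.1) in cluster 6. None was called (Negative) in 40.2% of cluster 5, 30.3% of cluster 1 and 55.9% of cluster 6. The call Doublet was given to 14.9% (13.7 to 16.2) of cluster 5, 11.7% of cluster 1 and 8.67% of cluster 6, and Multiplet to 4.72%, 3.23% and 1.70%. Within the common UMI range Doublet stood at 14.2% in cluster 5 and 10.4% in cluster 1. The median number of detected barcodes was 2, 3 and 0 in clusters 5, 1 and 6. Detected barcodes rose with depth, with a Spearman rho of 0.43 with UMIs over the 3328 cells of cluster 5, given as a description. Whether several detected barcodes were carried by 1 cell or came from doublets or free RNA was not tested, so barcodes are not counted here as founding cells.

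Most barcoded untreated cells of the cluster carried 1 of 20 barcodes found mainly inside it, 68.6% (66.1 to 71.1) of them, and the rest carried barcodes found mainly elsewhere or rarely. A single barcode was called in 1336 of its UNT cells, and 148 different barcodes were seen. The 10 most frequent held 48.3% (45.6 to 51.0) of these cells, against 41.7% (39.9 to 43.5) in cluster 1 and 62.0% (57.8 to 66.1) in cluster 6. In 537 barcoded cells, the number that cluster 6 had, an average of 101 different barcodes would be drawn in cluster 5, 175 in cluster 1 and 117 in cluster 6. At the other end, 60 barcodes were seen in only 1 cell of cluster 5, and together these were 4.49% of its barcoded cells.

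Frequent barcodes fell into a set mostly inside the cluster and a set mostly outside it. Of the 59 barcodes with at least 20 UNT cells, 20 had over 50% of these cells in cluster 5 and are called cluster 5-led below. All 20 had 81.0% to 100% there, with a median of 88.4%. Of the other 39 barcodes, 7 had 10% to under 40% and 32 had less than 10%, with a highest value of 30.2% and a median of 2.56%. The range from 40% to 80% held 0 of the 59, by the latest call; the rarer bc14-39-bc30-41529, with 16 UNT cells, had 75%. Under the first revised and the earliest barcode calls, which cover fewer UNT cells, 10 and 7 barcodes were cluster 5-led. With cells of exactly 1 detected barcode 1 was, each time among the same 20. Some shares then fell into that range: bc14-95-bc30-65716 had 78.4%, 74.4% and 78.6% under these 3 choices, bc14-47-bc30-43673 had 73.3% by the earliest call, and bc14-71-bc30-53519 had 70% with exactly 1 detected barcode. Of the 39, 30 were led in the same way by cluster 1, 8 by cluster 6 and 1 by none of the 3. The values just outside the threshold were the 30.2% of bc14-51-bc30-85760 (43 cells) and the 30% of bc14-40-bc30-47831 (60 cells), and those just inside were the 81.0% of bc14-6-bc30-73144 (21 cells) and the 81.1% of bc14-37-bc30-87265 (37 cells).

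Taken over cells, 917 of the 1035 UNT cells with a cluster 5-led barcode lay in cluster 5, 88.6% (86.5 to 90.5). The barcodes were chosen for lying in cluster 5, so the level is partly set by the choice, and it was alike in cluster 1: 1737 of 1922 UNT cells with a cluster 1-led barcode lay in cluster 1, 90.4% (89.0 to 91.7), and 306 of 411 with a cluster 6-led one in cluster 6, 74.5% (69.9 to 78.6). Of the 2357 cells with another frequent barcode 4.03% (3.27 to 4.90) did, and of the 1695 with a rarer barcode 19.1% (17.3 to 21.1). Another cell with the same barcode as a cluster 5 cell lay in cluster 5 in 82.6% of pairs, and a cell with a different barcode in 25.6%. For barcodes of 2 to 19 cells the same-barcode value was 66.1%. Because a called barcode can be 1 of several detected, the share was also taken over the 134 cells with a cluster 5-led barcode and no further barcode detected. There it was 88.1% (81.3 to 93.0). Clusters were made from variable genes, and whether barcode transcripts were among them is not given in the sources used here.

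**Figure D4:**
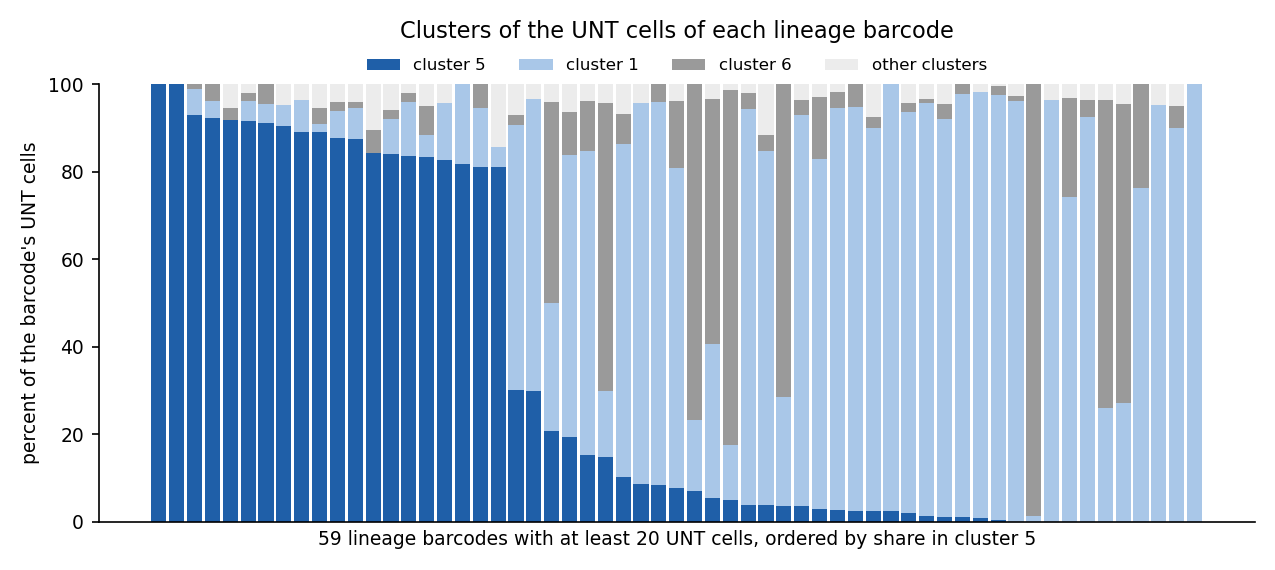
Each column is 1 of the 59 lineage barcodes with at least 20 UNT cells, ordered by its share in cluster 5, and the colours give the percent of its UNT cells in clusters 5, 1, 6 and all others. The first 20 columns have 81.0% or more in cluster 5 and the next has 30.2%.

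The most frequent barcode of the state was bc14-22-bc30-18173. It was called in 153 UNT cells, of which 140 lay in cluster 5, 91.5% (85.9 to 95.4), 7 in cluster 1 and 3 in cluster 6, and it made up 10.5% of the barcoded cells of cluster 5. Barcode bc14-95-bc30-65716 had 98 of 110 cells there, 89.1% (81.7 to 94.2). For bc14-53-bc30-85524 the count was 78 of 84, 92.9% (85.1 to 97.3). These 3 shares lay within each other's intervals.

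The other cluster 5-led barcodes of the printed set were alike. Barcode bc14-4-bc30-15682 had 63 of 72 cells in cluster 5, 87.5% (77.6 to 94.1). For bc14-47-bc30-43673 it was 50 of 60, 83.3% (71.5 to 91.7). Barcode bc14-71-bc30-53519 had 49 of 55, 89.1% (77.8 to 95.9). The barcodes bc14-55-bc30-37135 (35 of 35) and bc14-18-bc30-99249 (25 of 25), named after their values were seen, had no called cell outside the cluster.

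The most frequent barcodes of the library lay elsewhere. Barcode bc14-30-bc30-58918 had 0 of its 262 UNT cells in cluster 5, where 3 cells would be 1.15%, and 252 in cluster 1. Barcode bc14-22-bc30-14328 had 1 of 250, 0.4% (0.0101 to 2.21), and 243 in cluster 1. It shares its 14-base part with bc14-22-bc30-18173, of which 91.5% lay in cluster 5. Of the 20 cluster 5-led barcodes, 12 shared their 14-base number with a frequent barcode led by another cluster. How often the other frequent barcodes share a number was not counted, so the 12 are no trait of the led ones.

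Within cluster 5 the led lineages varied. Over their cells inside the cluster, median pseudotime ran from 1.16 in bc14-49-bc30-30722 (43 cells) to 2.90 in bc14-28-bc30-22697 (38 cells). The share called G2M ran from 21.4% in bc14-2-bc30-62822 (42 cells) to 62.5% in bc14-87-bc30-24956 (24 cells). The named bc14-22-bc30-18173 had 42.9% and bc14-95-bc30-65716 had 34.7%. One divided lineage, named after its values were seen, was bc14-40-bc30-47831, with 18 of 60 cells in cluster 5 and 40 in cluster 1. Its 18 cells had a median pseudotime of 4.03, above every led lineage.

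The 118 UNT cells of led lineages outside cluster 5 were mostly in cluster 1 (62 cells), with 22 each in clusters 6 and 0. Those in cluster 1 had a median pseudotime of 7.23 and a median UMAP_2 of -6.88, between the medians of clusters 5 and 1. Of those in cluster 0, 77.3% were called G1. In the other direction, 70 cluster 5 cells had a cluster 1-led barcode. Their median UMAP_2 of -7.54 was nearer to cluster 1 than the -7.91 of the led lineages, and their median pseudotime of 3.86 was above the 2.11 of those lineages.

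The same barcodes were more frequent in cluster 5 among nuclei of run 3, a separate library that did not enter the choice of the led barcodes. Of all 4935 barcoded UNT nuclei 4.70% (4.13 to 5.33) lay in cluster 5. Among nuclei with a cluster 5-led barcode 100 of 905 did, 11.05% (9.08 to 13.3), against 19 of 1353 with a cluster 1-led barcode, 1.40% (0.848 to 2.18), and 8 of 327 with a cluster 6-led one, 2.45% (1.06 to 4.76). The cluster 5-led share was again the highest of the 3, at a far lower level than in cells.

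By barcode, 46 had at least 20 UNT cells and 20 UNT nuclei. At least 2 times the overall nuclear share of 4.70% was reached by 32.6% of the 46. Among the 18 led barcodes it was reached by 13, and among the other 28 by 2. The led barcodes had 0% to 20.6% of their nuclei in cluster 5, with a median of 11.2%, and the others 0% to 15%, with a median of 1.04%. Barcode bc14-95-bc30-65716 had 13 of 86 nuclei there, 15.1% (8.30 to 24.5). Barcode bc14-22-bc30-18173 had 9 of 104, 8.65% (4.03 to 15.8). Of the 18 led barcodes, 1 had no nucleus there, bc14-51-bc30-57144, with 0 of 26 nuclei and 41 of 45 cells, where 3 nuclei would be 11.5%. Also below the overall share were bc14-4-bc30-15682 (2 of 50, 4%) and bc14-18-bc30-99249 (1 of 26, 3.85%). Neither bc14-30-bc30-58918 (0 of 100 nuclei) nor bc14-22-bc30-14328 (0 of 185) had any.

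Most nuclei of the led lineages were in cluster 0 instead, 618 of 905 or 68.3%, close to the 66.5% of all barcoded nuclei, and 140 were in cluster 11. Inside cluster 0 they sat apart. Their median UMAP_2 was -3.53 (middle 50% -3.96 to -2.78), against -1.91 (-2.62 to -1.34) for 937 nuclei with a cluster 1-led barcode and -2.40 for 176 with a cluster 6-led one. Cluster 5 nuclei had a median of -3.60. The median pseudotime of these cluster 0 nuclei was 12.4 for the cluster 5-led, 15.1 for the cluster 1-led and 14.1 for the cluster 6-led barcodes. The deposited cluster number thus caught only some of the nuclei of these lineages.

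**Figure D5:**
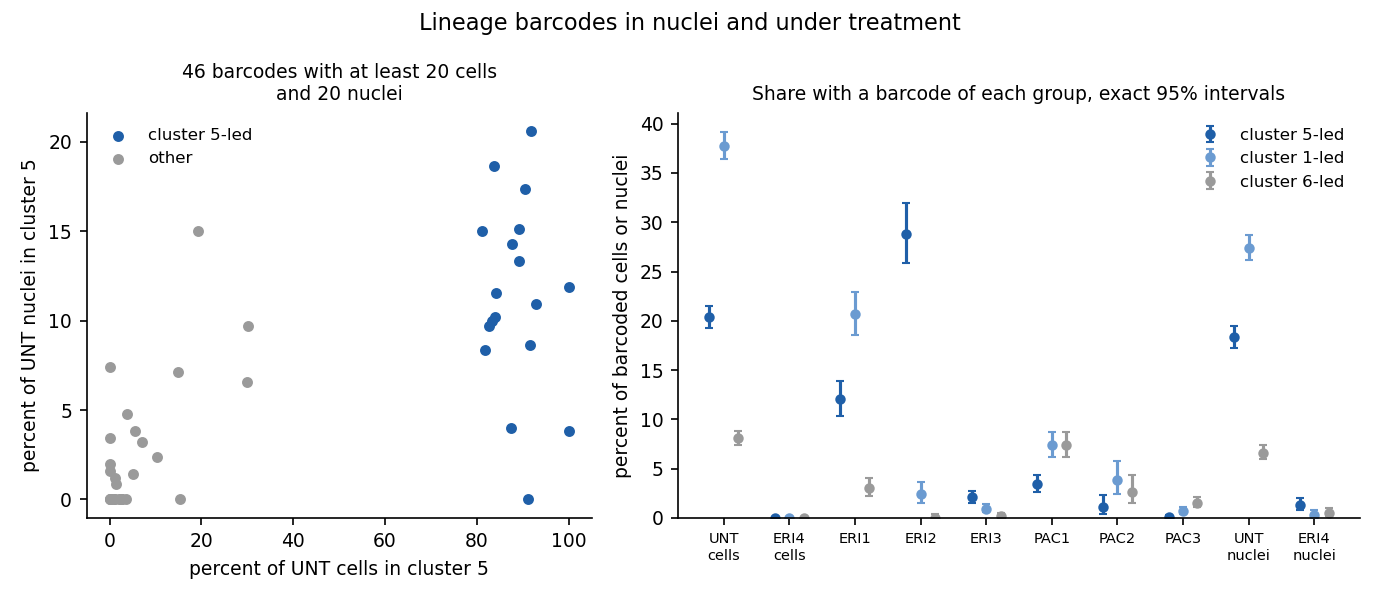
Left, for 46 barcodes with at least 20 UNT cells and 20 UNT nuclei, the percent in cluster 5 in cells and in nuclei, with cluster 5-led barcodes in blue. Right, the percent of barcoded cells or nuclei of each condition that carry a cluster 5-led, cluster 1-led or cluster 6-led barcode, with exact 95% intervals: cluster 5-led barcodes stand at 20.3% in UNT cells, 28.8% in ERI2 and 0 in ERI4 cells.

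After 4 rounds of eribulin in run 1 the led lineages were not seen. They made up 1035 of 5087 barcoded UNT cells, 20.3% (19.2 to 21.5), and 0 of 6725 barcoded ERI4 cells, where 3 cells would be 0.0446%. For single barcodes this is at least 9.25-fold lower for the rarest and at least 67.4-fold lower for bc14-22-bc30-18173, against a floor of 3 cells. All 20 led barcodes were at least 2 times lower, and so were 100% of the 59 frequent barcodes, none of which was seen in ERI4 cells. Cluster 1-led and cluster 6-led barcodes were therefore as unseen as the cluster 5-led ones. With barcodes of at least 10 UNT cells admitted as led, the ERI4 share was 1.74%, nearly all of it 1 barcode, bc14-39-bc30-41529, described below. In nuclei of run 3 the led barcodes fell from 905 of 4935 barcoded nuclei, 18.3% (17.3 to 19.4), to 19 of 1495, 1.27% (0.767 to 1.98), and none of the 19 was in cluster 5. Of the 19, 11 carried bc14-55-bc30-37135. Cluster 1-led barcodes went from 27.4% to 0.334% (0.109 to 0.779) of barcoded nuclei, and cluster 6-led ones from 6.63% to 0.468% (0.188 to 0.962). The share was thus lower after 4 rounds in all 3 groups. Only 17.2% of ERI4 nuclei had 1 called barcode. By the first revised call, which covered 4245 of them, the cluster 5-led share was 0.0707%, over the 10 barcodes led under that call.

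Under 1 to 3 rounds of eribulin in run 2 the led lineages were present and then sparse. They made up 163 of 1356 barcoded ERI1 cells, 12.0% (10.3 to 13.9), 254 of 882 ERI2 cells, 28.8% (25.8 to 31.9), and 46 of 2215 ERI3 cells, 2.08% (1.52 to 2.76). Cluster 1-led barcodes made up 20.6% (18.5 to 22.9), 2.38% (1.48 to 3.62) and 0.903% (0.552 to 1.39). From ERI1 to ERI2 the share of the cluster 5-led barcodes was thus higher and that of the cluster 1-led barcodes lower.

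The ERI2 value rested on few barcodes. Barcode bc14-22-bc30-18173 marked 36 ERI1 cells, 2.65% (1.87 to 3.66), 124 ERI2 cells, 14.1% (11.8 to 16.5), and 16 ERI3 cells. Barcode bc14-55-bc30-37135 marked 26 ERI1 cells, 1.92% (1.26 to 2.80), 80 ERI2 cells, 9.07% (7.26 to 11.2), and 18 ERI3 cells. Without these barcodes the led share was 7.81% after the first round, 7.37% after the second and 0.550% after the third, so nothing of the higher ERI2 value remained. Of the 59 frequent barcodes, 8 had at least 20 cells over ERI1 and ERI2 together. At least 2 times higher in ERI2 were 37.5% of the 8, and all of these were cluster 5-led: bc14-22-bc30-18173, bc14-55-bc30-37135 and bc14-49-bc30-30722 (8 and 29 cells). At least 2 times lower were 62.5%, of which 1 was led by cluster 5, bc14-47-bc30-43673 (22 and 5 cells). With 4 led barcodes in all, these are counts and not a trend.

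In the eribulin conditions of run 2 nearly all cells of led lineages were outside cluster 5. Of their ERI1 cells 149 of 163 lay in cluster 7, 91.4%, and of their ERI2 cells 245 of 254, 96.5%. Of all barcoded cells of these conditions 91.96% and 90.6% were in cluster 7, so the led lineages were placed like the rest. In ERI3, 22 of 46 were in cluster 2, 14 in cluster 7 and 3 in cluster 5.

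Under paclitaxel the led lineages were sparse from the first round, and a share of their PAC1 cells was in cluster 5. They made up 61 of 1792 barcoded PAC1 cells, 3.40% (2.61 to 4.35), 6 of 569 PAC2 cells, 1.05% (0.388 to 2.28), and 2 of 2286 PAC3 cells, 0.0875% (0.0106 to 0.316). Cluster 1-led barcodes made up 7.37%, 3.87% and 0.656% of these conditions, and cluster 6-led ones 7.37%, 2.64% and 1.53%. From PAC1 to PAC3 the share thus went down in all 3 groups. As levels, UNT cells had 20.3% cluster 5-led, 37.8% cluster 1-led and 8.08% cluster 6-led barcodes. In PAC1 16 of the 61 cells with a cluster 5-led barcode were in cluster 5, 26.2% (15.8 to 39.1), and 30 in cluster 6. Of cluster 1-led PAC1 cells 3 of 132 were in cluster 5, 2.27% (0.471 to 6.50), and of cluster 6-led ones 1 of 132, 0.758% (0.0192 to 4.15). The cluster 5-led share lay above the other 2, whose intervals overlapped. PAC1 differs from UNT cells in run, library and drug together, and these cannot be told apart.

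Cluster 5 members of PAC1 carried 22 different barcodes in 41 barcoded cells. In 36 of the 41, 87.8%, the barcode had also been seen in cluster 5 of UNT cells, against 383 of all 1792 barcoded PAC1 cells, 21.4%. The most frequent were bc14-39-bc30-41529 with 6 cells and bc14-55-bc30-99383 with 4. The call Doublet stood at 21.5% (12.3 to 33.5) of the 65 members, against 7.96% of all PAC1 cells, and 36.9% (25.3 to 49.8) were called G1. The median member had 10204 UMIs, against 11715 in the rest of PAC1. The part of doublets in these members was not tested.

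The few eribulin members are described by their calls. Of the 12 ERI4 cells in cluster 5, 8 were called Doublet, 66.7%, against 1.97% of all ERI4 cells. Their median pseudotime was 6.56, and 6 of the 12 lay at or below 4.89. The 2 with a single barcode carried bc14-55-bc30-99383. Of the 11 ERI3 members, 4 were called Doublet and 7 had a single barcode. Of those 7, 3 carried bc14-55-bc30-37135 and 3 carried bc14-55-bc30-99383. The PAC2 member carried bc14-55-bc30-37135. The 6 ERI4 nuclei had a median pseudotime of 10.9, and 4 of them had no called barcode.

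Rare cluster 5 barcodes of untreated cells were among those seen after 4 rounds of eribulin. These had fewer than 20 UNT cells and so are not among the 20 led ones. Barcode bc14-39-bc30-41529 had 12 of its 16 UNT cells in cluster 5, 75% (47.6 to 92.7), and 6 of its 44 UNT nuclei. It made up 0.315% (0.180 to 0.510) of barcoded UNT cells and 113 of 6725 ERI4 cells, 1.68% (1.39 to 2.02). Its run 2 counts were 86 ERI1 cells, 6.34% (5.10 to 7.77), 57 ERI2 cells, 6.46% (4.93 to 8.29), and 104 ERI3 cells, 4.70% (3.85 to 5.66). Its cells lay in cluster 5 when untreated, in cluster 7 in ERI1 (81 of 86) and ERI2 (54 of 57), and in cluster 12 in ERI3 (91 of 104) and ERI4 cells (109 of 113). Within run 1 its share was thus 5.34 times as high after treatment, with intervals that did not overlap, and no replicate to set against the difference. The ratio rests on 16 UNT cells of a barcode named for being seen in ERI4 cells. Its 12 cluster 5 cells had a median of 6 detected barcodes, against 2 in the whole cluster, so the call often picked 1 of several. A single barcode was called in 46.0% of UNT cells and 72.1% of ERI4 cells. In nuclei of run 3 bc14-39-bc30-41529 marked 44 untreated ones, 0.892% (0.649 to 1.20) of those barcoded. After 4 rounds it marked 79, 5.28% (4.21 to 6.54), so its share was higher there too. Of the 79 nuclei 30 lay in cluster 12. A single barcode was called in 49.8% of UNT nuclei and 17.2% of ERI4 nuclei.

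Barcode bc14-55-bc30-99383 had 16 of 18 UNT cells in cluster 5, 88.9% (65.3 to 98.6). Counts were 60 in ERI1, 4.42% (3.39 to 5.66), 31 in ERI2, 3.51% (2.40 to 4.95), and 17 in ERI3, 0.767% (0.448 to 1.23). In ERI4 cells it was in 3 of 6725, 0.0446% (0.00920 to 0.130), against 0.354% (0.210 to 0.559) in UNT cells. Barcode bc14-1-bc30-96229 had 14 of 15 UNT cells in cluster 5, 93.3% (68.1 to 99.8), was in 30 ERI2 cells, 3.40% (2.31 to 4.82), and in 1 ERI4 cell. In cells of run 1 neither was more frequent in ERI4 than in UNT. In nuclei of run 3 bc14-55-bc30-99383 marked 36 untreated ones, 0.729% (0.511 to 1.01) of those barcoded. After 4 rounds it marked 12, 0.803% (0.415 to 1.40), so its lower share in ERI4 cells was not seen in nuclei. Barcode bc14-1-bc30-96229 marked 14 untreated nuclei, 0.284%, and 2 after 4 rounds, 0.134%.

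The 3 barcodes most frequent over all treated conditions had no untreated cell called in cluster 5. Barcode bc14-55-bc30-23349 had 0 of 14 UNT cells there, bc14-6-bc30-93034 had 0 of 15 and bc14-76-bc30-49517 had 0 of 6. None of their nuclei was in it either (0 of 19, 0 of 12 and 0 of 2). With so few untreated cells, 3 cells would be 21.4%, 20% and 50% of them. None of their treated cells or nuclei was in cluster 5.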

How the data were processed

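The deposited cell table gives, for each cell or nucleus, counts of UMIs and genes, percent of mitochondrial and ribosomal UMIs, S and G2M scores, UMAP, pseudotime, cluster number and lineage barcode calls, all made by the authors. Per the submitters' processing notes and the series' design text, reads were processed on mm10 with Cell Ranger 3.1.0 (run 1), Cell Ranger 4.0.0 (run 2) and Cell Ranger ARC 1.0.0 (run 3), and with Seurat 3.1.4; the series' design text names Monocle3 0.2.1 for pseudotime scores, with untreated cells as the root. The authors' deposited UMI counts are not normalized, the percent columns are shares of a cell's UMI counts, and how the authors made the phase scores is not given in the sources used here. Clusters and UMAP were made from variable genes, per the series' design text. The expression matrix was not analysed here. The stated filter was at least 200 genes and at most 50% mitochondrial or ribosomal UMIs; 179 cells of run 2 lay outside it, 0 of them in cluster 5.

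From this table, shares were computed with exact 95% intervals in Python 3.11.15 (numpy 2.4.6, pandas 2.3.3, scipy 1.17.1, matplotlib 3.10.9), with functions tested on simulated data. A cell was G1 where both scores were at or below 0, and otherwise took the phase of the higher score. The latest of the deposited barcode calls was used, and 1 was subtracted from the number of detected barcodes in nuclei. Doublets were known only from these calls, and no doublet caller was run. Another name column calls the run 1 eribulin library ERI1; the labels, which give 4 rounds, were followed. Samples were grouped by their labels. All 65 barcodes looked up were found in the deposited reference of 10000000 barcodes of 48 bases.

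The cluster, the barcodes and the comparisons were chosen with earlier results of these data known. Barcodes were named by rule: the 6 with most cluster 5 UNT cells, the 2 with most UNT cells and under 10% of them in cluster 5, the 3 with most members outside UNT cells, the 3 with most cluster 5 UNT cells among those seen in ERI4 cells, and the 3 most frequent in treated conditions. Any other barcode was named after its values were seen. With 1 library per condition no test was run. Alternatives were UMI ranges, other barcode calls, other minimum cell numbers, phase and doublet subsets, and shared cell barcodes.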

Additional observations from a re-analysis of the deposited data

Results flagged for a closer look

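Between clusters 5 and 1 of untreated samples, 8 quantities were set side by side in cells and in nuclei, and 5 differed in opposite directions in the 2 assays. The median UMI count of cluster 5 minus that of cluster 1 was -5520.5 in cells and 23.5 in nuclei, and the median number of genes differed by -531 and 24.5. The median mitochondrial percent differed by 0.0785 points in cells and -0.777 in nuclei. The percent of cells with 1 called barcode differed by -14.6 points in cells and 1.38 in nuclei, and the percent called Negative by 9.89 and -3.42. Each assay had 1 untreated library, so these differences between assays were not tested.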

How the results depend on the processing

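The share of UNT cells in cluster 5 was 31.49% in the UMI range common to UNT and ERI4 cells, 28.8% without cells called Doublet or Multiplet and 27.5% among G1 cells. With means in place of medians, the pseudotime difference from cluster 1 was -6.18 against -5.66. The G2M difference was 8.79 points in the common UMI range. Results on lineages moved with the calls. In the order first revised call, earliest call and exactly 1 detected barcode, the 10 most frequent barcodes held 55.5%, 57.6% and 66.2% of the barcoded cluster 5 cells, and 10, 7 and 1 barcodes were cluster 5-led, all of them among the 20. Fewer cells have a barcode under these calls, except in ERI4 nuclei, where 4245 had 1 by the first revised call and 1495 by the latest. In the same order, followed by barcodes of at least 10 UNT cells, the cluster 5-led share was 13.5%, 11.5%, 4.39% and 23.2% in UNT cells, 7.32%, 6.38%, 2.66% and 26.6% in ERI1, 20.4%, 20.3%, 15.2% and 42.2% in ERI2, 0.564%, 0.394%, 0.300% and 7.99% in ERI3, and 2.53%, 2.02%, 0.503% and 6.19% in PAC1. It was 10.1%, 5.18%, 2.28% and 22.8% in UNT nuclei and 0.0707%, 0.223%, 0 and 7.49% in ERI4 nuclei. In PAC2 it was 0.226% with exactly 1 detected barcode and 2.46% with at least 10 UNT cells, and in ERI4 cells 1.74% with at least 10 and 0 otherwise. Without bc14-22-bc30-18173 and bc14-55-bc30-37135, an alternative chosen after seeing the data, it was 7.81%, 7.37% and 0.550% in ERI1, ERI2 and ERI3. ERI2 stayed above ERI1 under all these calls except without those barcodes. With exactly 1 detected barcode that order rests on bc14-22-bc30-18173 alone. The led set was drawn anew under other calls or minimum cell numbers. These led shares thus cover 10, 7, 1 and 29 barcodes in place of the 20, and move with the set. Any other cause of the shifts was not tested. Under the alternatives 45 values of the main results moved outside the interval of the main value or a set fold, and 25 did not. Those 25 include the number of led barcodes with at least 10 UNT cells, 29 against 20, which was judged by fold. Leaving out shared cell barcodes was also chosen after seeing the data. The number of different barcodes in 537 cells could not be given under the other calls, which left 524, 429 and 151 barcoded cells in cluster 5. No paired analysis was possible because no condition had a replicate.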
